A study of Mus musculus with 20 samples.

Results

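The 5 tumours described here were the isotype control arm of a study of subcutaneous MMC tumours, chosen by their treatment label and day, out of 20 tumours in 4 groups. All 770 genes of the nCounter panel were used, and no other group entered any value. MMC is a mouse mammary carcinoma line that is driven by HER2, the receptor encoded by Erbb2. The host line was FVB/N-TgN(MMTV-Erbb2)NK1Mul/J, aged 6 to 8 weeks at implantation, in which the MMTV promoter drives an Erbb2 transgene chiefly in mammary epithelium. Each mouse received 5 mg/kg of an isotype control antibody into the peritoneum when its tumour measured 200 to 500 cubic mm, and the tumours were taken on day 1. The group was therefore given an antibody and was not left untreated. All 5 tumours grew from a single cell line in hosts of 1 strain, so the spread between them is that between transplants and not between independently arising tumours. The labels number the tumours 1 to 5 and name no batch.

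A transplanted carcinoma is a mixture of tumour cells, fibroblasts, vessels and leukocytes, and its RNA carries the transcripts of all of them. Macrophages are usually abundant in mammary carcinomas, where they present antigen, clear immune complexes through Fc receptors and secrete complement and chemokines. Type I and type II interferons induce a shared set of antiviral and antigen presentation genes, so the level of that set is a readout of interferon signalling in a tissue. In bulk RNA, fewer cells of a type and less RNA per cell cannot be told apart.

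Every deposited signal was a whole probe count multiplied by 1 factor per tumour, and recovered totals were 271793 to 395944 counts. The factor, the signal of 1 count, was 0.941, 0.958, 1.18, 1.33 and 0.971 in tumours 1 to 5, so tumour 4 was the least deeply counted. A probe counts molecules whatever the length of the transcript, but probes differ in efficiency, so the ranks below are ranks of signal. The 20 reference genes of the panel had a geometric mean of 389.26 to 389.27 in all tumours. Such equality belongs to the scaling of the values and is no finding about the tumours. A low level in a tumour is therefore low relative to these genes. Taken singly the reference genes varied, with a median SD of 0.18 on the log2(signal + 1) scale. Sap130, which encodes a Sin3A-associated protein, ran from 74.4 to 151. No 2 tumours held the same values. Across the 393 genes with a mean count of at least 50 the log2 signals of any pair had a Pearson r of 0.967 to 0.987 (across genes, which share libraries and are not independent replicates).

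Signals covered 5 orders of magnitude. A mean signal below 10 was found for 205 genes, 10 to 100 for 263, 100 to 1000 for 247, 1000 to 10000 for 53, and above that for 2. The median gene of each tumour lay at 48.9 to 62.6. Lcn2 alone supplied 27.3% to 31.0% of all counts in a tumour, and the 10 highest genes together 47.5% to 51.0%.

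**Figure D1:**
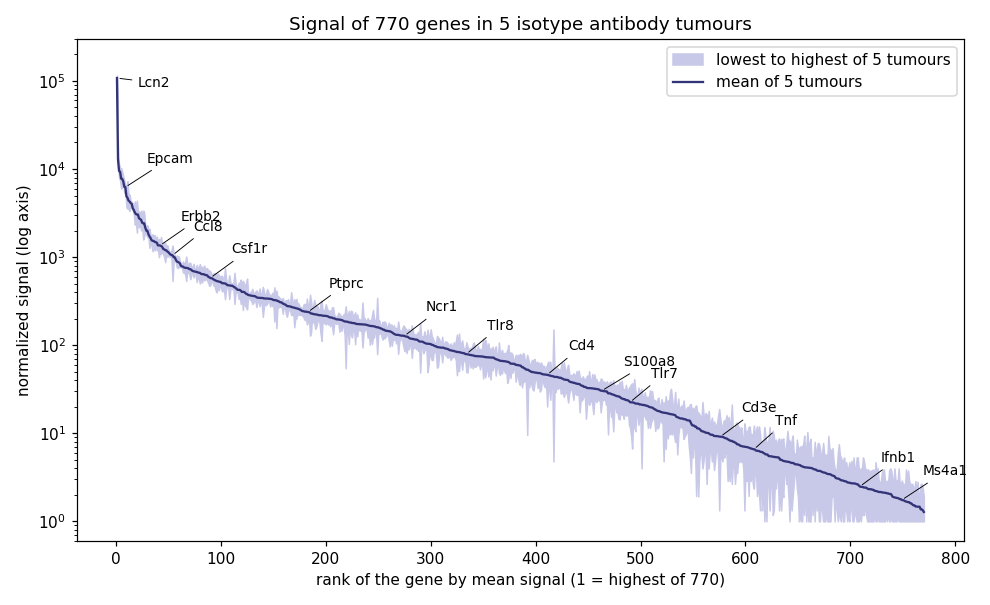
Normalized signal (log axis) of 770 genes against their rank by mean signal in 5 isotype antibody tumours. The line is the mean, and the band runs from the lowest to the highest tumour. The band is narrow at the top and widens below a signal of about 10, where values rest on a few counts.

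Lcn2 encodes lipocalin-2, a secreted siderophore-binding protein made by neutrophil precursors and by many carcinomas. Its signal was 108830, 108311, 103733, 102500 and 114717 in tumours 1 to 5, with a mean of 107618 ± 4838 (SD, n = 5). It stood first in every tumour, with only a 1.12-fold distance between the lowest and the highest. Lcn2 shares counted in a single tumour were precise, such as 29.2% in tumour 1 with an exact (Clopper-Pearson) 95% interval of 29.1% to 29.4%, which covers counting error only. The 19 measured genes of the neutrophil list, Lcn2 included, had a median signal of 17.8, and 5 of them had a mean count of at least 50. Over those 5, Lcn2 among them, the mean of log2(signal + 1) was 9.71 to 9.93 per tumour. A signal of at most 20 in every tumour was found for 9 of the 19, against 29.6% of the panel. Ltf, which encodes lactoferrin of neutrophil granules, had a mean of 1.87 ± 1.32. Camp, the cathelicidin, had 1.92 ± 0.843, and Elane, neutrophil elastase, 2.56 ± 1.41. These 3 genes were chosen after their values were seen. All 3 lie under the list's median of 17.8, and none is among the 5 members with a mean count of at least 50, so they do not stand for the list. Which cells carried the Lcn2 transcript was not tested.

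Behind Lcn2 came Cd81, a tetraspanin, at 12747 ± 515. The collagens Col3a1 (9296 ± 1179) and Col1a1 (7778 ± 1600) ranked 4 and 5 and are made by fibroblasts. Apoe, the apolipoprotein of macrophages and many other cells, had 7247 ± 615, and Dusp6, a phosphatase induced by ERK signalling, 6282 ± 731. Epcam, the epithelial adhesion molecule, ranked 9 with signals of 6100, 5820, 6449, 6533 and 6163. All 5 tumours lay within 1.12-fold of each other for Epcam. The 25 highest non-reference genes also included genes of antigen presentation (H2-Aa, Cd74, H2-D1, H2-K1), surface and adhesion genes (Cd9, Itgb1, App, Tfrc), lysosomal genes (Lamp1, Lamp2, Ctsh) and Spp1, Ifitm2, Vim, Gpi1, Lyz2, H2-Ab1 and Fn1. With reference genes included, 24 or 25 of the 25 highest genes kept their place among them when any 1 tumour was left out. In that order H2-Ab1 ranked 27 and was not among the 25.

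Erbb2, the HER2 gene itself, ranked 42 with a mean of 1353 ± 140. Its 5 values were 1497, 1296, 1301, 1497 and 1177, so tumours 1 and 4 were highest and tumour 5 lowest, 1.27-fold apart. The sources used here do not say whether the probe reads the transgene, the mouse gene or both. Cdh1, the E-cadherin gene, had 1070 ± 40.7, whereas Muc1, an epithelial mucin, had only 48.9 ± 13.0. The 4 epithelial markers summed to 8208 to 9140 per tumour. Over the 15 measured genes of tumour cells and epithelium the median signal was 625, against 58.5 over the panel. The labelled tissue, an epithelial tumour, thus showed the epithelial markers Epcam and Cdh1 in all 5 tumours, whereas the mean of Muc1 lay under the panel median of 58.5.

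Markers of fibroblasts summed to 14875 to 20123 and were carried by the collagens, since Fap, a protease of activated fibroblasts, had 106 ± 22.4 and Pdgfrb 34.6 ± 7.54. Vessel markers were all detected. Pecam1 had 216 ± 20.9, Cdh5, the VE-cadherin gene, 119 ± 12.3, Kdr, a VEGF receptor, 105 ± 12.9, and Tek 31.5 ± 6.60. The 3 pan-leukocyte markers summed to 273 to 410, with Ptprc, which encodes CD45, at 276, 184, 262, 237 and 229. Tumour 2 had the least and tumour 1 the most, 1.5-fold apart. With equal medians of all genes tumour 4 had the most Ptprc, and its SD on the log2(signal + 1) scale fell from 0.22 to 0.10.

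**Figure D2:**
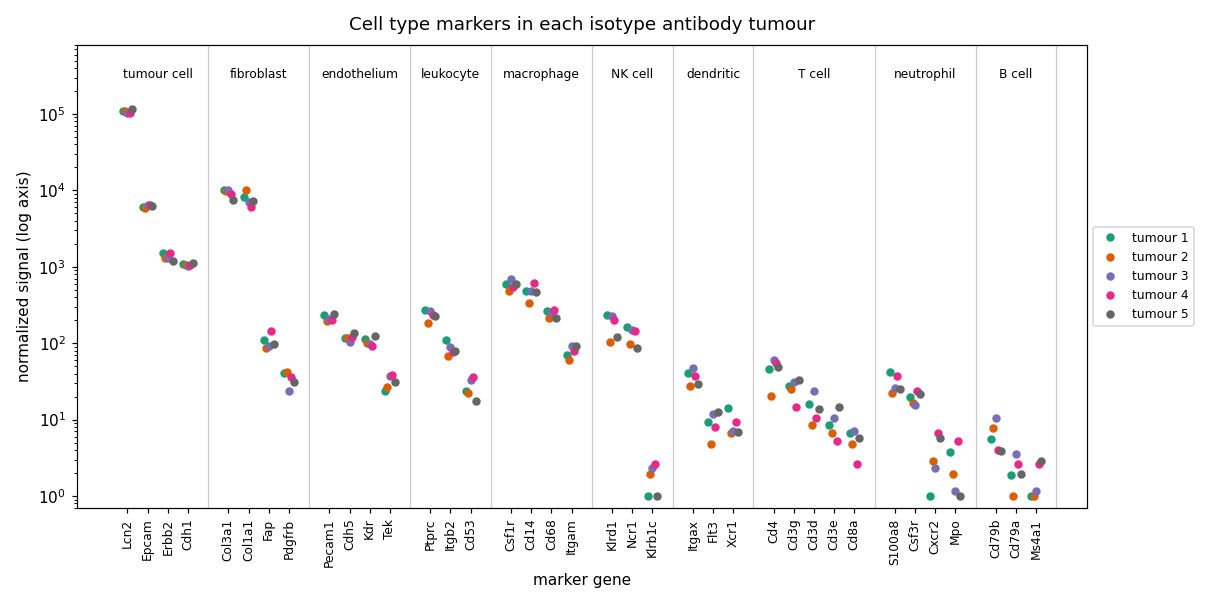
Normalized signal (log axis) of cell type markers, with a point for each of 5 tumours. Epithelial, fibroblast and macrophage markers lie mostly above 50, whereas B cell markers, Cd8a, Cxcr2, Mpo and Klrb1c lie near the lowest values of the table. The group headed tumour cell includes Lcn2, whose cell source was not tested. Muc1, the epithelial marker of lowest signal, is not plotted.

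Of the leukocyte cell types, monocytes and macrophages had the highest summed markers, 1090 to 1514 per tumour. The marker Itgam ranked only 336. Probes differ in efficiency, so these sums compare signals and not numbers of cells. On the list of monocyte and macrophage genes, the 22 measured had a median signal of 241 and a median rank of 180. Against 55 of the 770 genes of the panel, 4 of these 22 were at 1000 or more. These were Lyz2, which encodes lysozyme, Ctss, the protease that trims the class II invariant chain, and the complement genes C1qa and C1qb. Lyz2 signals were 1838, 1584, 3372, 2927 and 2400. Tumours 3 and 4 were highest and tumour 2 lowest for Lyz2, with a 2.13-fold range. Csf1r, the receptor that macrophages need to survive, had 591, 483, 686, 542 and 595, and Cd68 243 ± 27.8. The signals of its ligand gene Csf1 were 433, 555, 375, 294 and 429. Csf1 was highest in tumour 2 and lowest in tumour 4, and it kept these ends under all 4 other scalings tried. Csf1r was lowest in tumour 2 except with equal medians, where tumour 1 was lowest. Another Csf1r ligand, Il34, had 219 ± 26.4 and was named after its values were seen. Cx3cr1, a fractalkine receptor of monocytes and macrophages, was among the 10 steadiest genes at 402 ± 15.8, whereas Emr1, which encodes F4/80, ranged from 172 in tumour 1 to 339 in tumour 5 (named after its values were seen). Mrc1, the mannose receptor, had 328, 210, 359, 358 and 459, lowest in tumour 2 and highest in tumour 5 under every scaling tried. Marco, a scavenger receptor of resident macrophages of some tissues, was at 1 or 2 counts in all 5 tumours.

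Of the genes listed for alternative activation and immunosuppression, 12 of 20 had a mean count of at least 50, as did 51.0% of the whole panel. Spp1, the osteopontin gene, was the most abundant of these and ranked 11. Its signals were 3799, 4056, 3553, 7262 and 4925. Tumour 4 stood highest, and the spread was 20.9 times what counting alone gives, the largest such ratio of the 393 genes. Arg1, which encodes arginase 1, had 339 ± 53.9, whereas its counterpart of classical activation, Nos2, had 4.65 ± 1.55 (both named after their values were seen). Anxa1, Hif1a and Mif were at 1457 ± 227, 1648 ± 66.6 and 1991 ± 253. Which cells carried these transcripts was not tested, so their signals do not measure an activation state of macrophages.

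Fc-gamma receptors bind the constant part of IgG and are the link between an antibody and a myeloid cell. The inhibitory receptor Fcgr2b had the highest signal of the 4, with 652, 573, 619, 544 and 801. Tumour 5 was highest for Fcgr2b in every scaling tried. The activating receptors were lower, with Fcgr1 at 213 ± 36.0, Fcgr4 at 130 ± 15.9 and Fcgr3 at 125 ± 29.6. Fcgr3 and Fcgr4 overlapped in range (81.4 to 150 and 109 to 150). Fcer1g, the signalling chain that activating receptors share, had 279 ± 43.9, and Syk, the kinase downstream, 66.4 ± 13.2. Some of these receptors are related in sequence, and the sources used here give no probe sequences.

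Sensors of microbial and nucleic acid signals were measured for 29 of 31 listed genes, with a median signal of 79.3. Among the endosomal RNA and DNA sensors, Tlr3 had 206 ± 22.1, Tlr8 79.2 ± 20.5, Tlr7 22.5 ± 8.62 and Tlr9 17.2 ± 3.43. Tlr8 signals were 80.0, 49.8, 80.1, 78.4 and 108, and Tlr7 signals 33.9, 11.5, 18.9, 27.9 and 20.4. Both were lowest in tumour 2. The cytosolic RNA sensor Ddx58, which encodes RIG-I, had 363 ± 53.5, and Tmem173, which encodes STING, 286 ± 41.1. Cd14, the lipopolysaccharide co-receptor, was at 486, 334, 478, 622 and 466, and Tlr4 at 224 ± 52.4 (named, with Tlr3, after its values were seen). The adaptor genes were measurable throughout, with Tollip, an inhibitor of this pathway, at 343 ± 36.2.

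A few antigen presentation genes had high signals, 4 of 10 class II and 3 of 21 class I genes being at 1000 or more. Over the panel 55 of 770 genes were. The medians of these lists were 79.5 and 75.1 against 58.5 over the panel. Class II genes present extracellular antigen, and H2-Aa, their most abundant member, had signals of 5212, 3672, 6234, 3830 and 5564. Cd74, the invariant chain, had 5123, 3606, 5043, 3339 and 4283, and H2-Ab1 2417 ± 585. Tumours 2 and 4 were the 2 lowest for all 3 genes. Ciita, the master activator of class II genes, stood at 86.6 ± 10.9 (named after its values were seen). H2-Ea-ps, a pseudogene in some strains, had 72.3 ± 17.3. The H2 genes differ between mouse strains and have close copies, so a low signal of a single H2 gene and a poorly matched probe cannot be told apart.

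Class I genes present intracellular antigen to CD8 T cells. H2-K1 signals were 3929, 2521, 4373, 1894 and 2502, and those of H2-D1 were 4237, 2511, 4285, 2338 and 2737. Tumours 1 and 3 were highest for both genes and tumour 4 lowest. The immunoproteasome subunits, which replace constitutive subunits under interferon, showed the same 2 tumours on top. Psmb9 had 232, 109, 305, 121 and 94.2, and Psmb8 had 527, 285, 570, 262 and 255. For both subunits the highest tumour was 3 and the lowest tumour 5 in the deposited values and in all 4 other scalings. Nlrc5, the activator of class I genes, had 82.8, 50.8, 100, 41.2 and 47.6, again highest in tumour 3. The constitutive subunit Psmb7 spread less, at 1155 ± 143. Of the 15 class I and peptide loading genes with a mean count of at least 50, 4 (H2-K1, Psmb8, Psmb9 and Nlrc5) had an SD of at least 0.5, and the median SD was 0.38 against 0.20 over the 393 genes. An SD of at least 0.5 was found for 5.34% of the 393 genes.

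The interferons themselves were near the lowest values of the table. Ifnb1 had signals of 3.76, 1.92, 1.18, 2.66 and 2.91, and Ifng 1.88, 2.87, 2.36, 1.33 and 3.88. These are 1 to 4 counts in each tumour, too few for an order among tumours. The receptors were plentiful, with Ifnar1 at 639 ± 49.6, Ifnar2 at 346 ± 22.1 and Ifngr1 at 425 ± 22.9 (named after their values were seen). Of 44 interferon and interferon response genes, 29 had a mean count of at least 50 (51.0% of the panel did), and 10 had a signal of at most 20 in every tumour (29.6% of the panel did). Ifitm2, an inhibitor of viral entry, had 4112 ± 273. Bst2, which encodes tetherin, had 1527 ± 269, and Ifi27 1488 ± 236.

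Interferon-stimulated genes are switched on through promoter elements bound by STAT and IRF factors, which hold GAAA repeats. The promoters of 4 such genes are shown, whose signals stood above 50 in every tumour while Ifnb1 and Ifng gave a few counts. They were picked from the 7 on the interferon list, at a mean count of at least 50, that held a match (defined next). These 4 promoters therefore hold a match by choice. They are the 250 bases before the RefSeq gene start in GRCm38.p6, 5′ to 3′ on the gene's strand, and capitals mark matches to GAAA, any 2 bases and GAAA again, on either strand (TTTC, any 2 bases and TTTC when read from the other). Ifit3 (chr19:34583279-34583528, plus strand), Ifit1 (chr19:34640639-34640888, plus strand) and Isg15 (chr4:156200819-156201068, minus strand) were chosen after their values were seen, and Cxcl10 lies at chr5:92348890-92349139 on the minus strand.
Ifit3: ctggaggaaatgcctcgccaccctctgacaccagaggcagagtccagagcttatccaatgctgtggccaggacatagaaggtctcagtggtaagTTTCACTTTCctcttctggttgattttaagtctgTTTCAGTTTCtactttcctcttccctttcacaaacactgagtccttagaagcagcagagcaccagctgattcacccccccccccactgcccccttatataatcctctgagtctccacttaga
Ifit1: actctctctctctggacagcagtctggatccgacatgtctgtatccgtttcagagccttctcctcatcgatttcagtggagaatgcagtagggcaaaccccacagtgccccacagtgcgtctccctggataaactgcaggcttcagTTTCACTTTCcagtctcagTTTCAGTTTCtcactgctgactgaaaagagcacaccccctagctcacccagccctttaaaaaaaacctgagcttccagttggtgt
Isg15: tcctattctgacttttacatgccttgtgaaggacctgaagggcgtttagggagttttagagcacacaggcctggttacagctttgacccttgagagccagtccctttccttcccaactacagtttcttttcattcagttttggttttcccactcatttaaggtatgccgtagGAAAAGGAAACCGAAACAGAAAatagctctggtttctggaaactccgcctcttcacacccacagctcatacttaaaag
Cxcl10: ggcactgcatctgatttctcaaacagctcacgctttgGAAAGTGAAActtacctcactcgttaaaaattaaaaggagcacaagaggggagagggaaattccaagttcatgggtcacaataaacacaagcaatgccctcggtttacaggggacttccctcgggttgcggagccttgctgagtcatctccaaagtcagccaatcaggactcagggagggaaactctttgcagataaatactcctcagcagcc

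The match nearest the gene start lay 113 bases away in Ifit3, 76 in Ifit1, 57 in Isg15 and 204 in Cxcl10. Of 27025 genes with a promoter in the RefSeq table, 3.46% held at least 1 match in this window, as did 8.26% of the 569 panel genes found there. On the interferon list 13 of 35 (37.1%) did, and 7 of 23 (30.4%) of those with a mean count of at least 50. A match is a run of letters and shows no binding, and overlapping matches were counted separately. Ifit3, an antiviral gene of the IFIT family, had signals of 527, 320, 663, 294 and 475. Ifit1, its relative, had 139, 108, 141, 79.8 and 185, and Isg15, a ubiquitin-like modifier, 169, 98.7, 157, 117 and 157. Tumours 2 and 4 were the 2 lowest for all 3 genes. Cxcl10, a chemokine that draws CXCR3-bearing T cells, had 102, 67.1, 87.2, 54.5 and 70.9. Its relative Cxcl9, chiefly induced by interferon gamma, had 119, 60.4, 82.5, 67.8 and 41.7, highest in tumour 1 and lowest in tumour 5 in all scalings tried.

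Natural killer (NK) cell markers summed to 201 to 398 and those of T cells to 65.2 to 132. Klrd1, which encodes CD94, had 235, 102, 225, 202 and 119, and Ncr1, the activating receptor NKp46, had 162, 96.8, 148, 145 and 85.4. Tumours 2 and 5 were the 2 lowest for both genes. Klrb1c, also a marker, was at 1.79 ± 0.766. The granule protease Gzma had 98.8, 82.4, 150, 140 and 49.5, and Gzmb had 68.7, 92.9, 81.3, 78.4 and 40.8, so tumour 5 was lowest for both. Among the Klra genes, which encode Ly49 receptors, Klra2 reached 165 ± 48.0 but most others lay below 10. Ly49 gene content differs between mouse strains, so a missing gene and a silent gene cannot be told apart. The Xcl1 chemokine, made by NK and T cells, had 205 ± 47.1.

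T cell genes were low. The CD3 chain genes Cd3g, Cd3d and Cd3e had 26.1 ± 7.12, 14.5 ± 5.81 and 9.13 ± 3.62. Cd4 had 46.1, 20.1, 60.1, 54.5 and 49.5, lowest in tumour 2, and in human and rat is also expressed by macrophages. Cd8a, the marker of cytotoxic T cells, had 6.59, 4.79, 7.07, 2.66 and 5.82. At 2 to 7 counts per tumour, no order among tumours can be read from Cd8a. Of 32 T cell genes measured, 18 had a signal of at most 20 in every tumour, against 29.6% of the panel, and only 4 had a mean count of at least 50. Among these, Thy1 (549 ± 68.6), Gata3 (336 ± 25.5) and Tcf7 (58.8 ± 20.1) are also expressed outside the T cell lineage, Thy1 by fibroblasts and Gata3 by mammary epithelium. Foxp3, the regulatory T cell factor, had 3.74 ± 2.92.

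B cell genes had the lowest median signal of the cell type lists, 4.17. Of 19 measured, 14 had at most 20 in every tumour, against 29.6% of the panel. The markers Ms4a1, Cd79a and Cd79b had 1.75 ± 0.952, 2.2 ± 0.951 and 6.36 ± 2.83. The 2 B cell list members with a mean count of at least 50, Btla and Blnk, are not confined to B cells. Dendritic cell markers were modest. Itgax, which encodes CD11c, had 36.3 ± 8.06, Flt3 9.32 ± 3.13 and Xcr1, a receptor of cross-presenting dendritic cells, 8.80 ± 3.16. Neutrophil markers summed to 43.1 to 73.1, mostly from the calprotectin subunit S100a8 (30.4 ± 8.43) and Csf3r (19.3 ± 3.56), while Cxcr2 had 3.74 ± 2.4 and Mpo 2.64 ± 1.86. Of the mast cell markers, Kit had 138 ± 12.1 and Ms4a2 only 2.32 ± 1.10; Kit is also expressed by mammary epithelium.

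Inflammatory cytokines were largely at low counts. Of 43 cytokine genes measured, 27 had at most 20 in every tumour, against 29.6% of the panel. Tnf had 6.56 ± 3.57, Il6 3.60 ± 2.57 and Il12b, the p40 subunit of interleukin 12 and 23, 11.9 ± 4.91. Il1b was the exception among the classical inflammatory cytokines, at 94.1, 74.7, 84.8, 78.4 and 93.2 with a 1.26-fold range. The transforming growth factors, which restrain immunity and build matrix, were steady, with Tgfb3 at 357 ± 38.6 and Tgfb1 at 255 ± 22.6. Ltb, a lymphotoxin subunit, had 115, 43.1, 80.1, 59.8 and 68.9, from tumour 2 as the lowest to tumour 1 as the highest under all scalings tried.

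Of 36 chemokine genes, 14 had a signal of at most 20 in every tumour, as did 29.6% of the panel, and 1 was above 1000. Ccl8, which attracts monocytes and other leukocytes, was that gene, at 1323, 536, 1077, 956 and 1353. Tumour 2 lay well under the other 4. Ccl9, a myeloid chemokine, had 321, 156, 405, 315 and 416, and Ccl6, its relative, had 66.8, 9.58, 69.5, 39.9 and 77.7. All 3 were lowest in tumour 2 and highest in tumour 5 under each scaling tried. Without tumour 2 the SD of Ccl6 fell from 1.20 to 0.42, that of Ccl9 from 0.57 to 0.21 and that of Ccl8 from 0.54 to 0.24. Ccl2, the monocyte attractant, had 101 ± 21.6, and its receptor gene Ccr2 had 49.6 ± 15.1 (named after its values were seen). Cxcl14 (621 ± 83.6), Cxcl16 (395 ± 64.6), Ccl11 (215 ± 46.4) and Cxcl12 (179 ± 57.2) were also above 100. The highest chemokine receptors after Cx3cr1 were Cxcr4 (174 ± 10.9), Cmklr1 (103 ± 16.0) and Ccr1 (94.6 ± 14.5).

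Complement is a blood and tissue cascade that tags cells for uptake and lysis. Of 29 complement genes measured, 3 were at 1000 or more and 10 had a signal of at most 20 in every tumour. Over the panel, 55 of 770 genes were at 1000 or more, and 29.6% had a signal of at most 20 in every tumour. C1qb had 1223 ± 182, C1qa 1200 ± 213 and C1qbp, a mitochondrial protein that also binds C1q, 1136 ± 56.3, whereas C8a and C9, which encode parts of the terminal pore, were at 1 to 3 counts in every tumour. C3, the hub of the cascade, had 276, 54.6, 243, 93.1 and 262. Tumours 2 and 4 were far below the other 3, and the SD of 1.05 fell to 0.74 without tumour 2. Cfb, a factor of the alternative pathway, had 203, 112, 321, 191 and 262, and C4b 239, 128, 193, 234 and 374. Cfd, the alternative pathway protease also known as adipsin and made in quantity by fat cells, had 41.4, 4.79, 8.25, 16.0 and 150. It lay under the minimum of 50 counts and was named after its values were seen, and tumour 5 exceeded tumour 2, where it gave 5 counts, by 31.4-fold.

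Immune checkpoint genes were led by Cd47, which signals to macrophages not to engulf a cell, at 848 ± 51.6, and by Cd276, a B7 family member, at 317 ± 29.5. Cd274, which encodes PD-L1, had 52.7, 27.8, 51.9, 35.9 and 39.8, and its receptor Pdcd1 had 6.75 ± 2.76. The co-stimulatory genes Cd86, Cd40 and Cd80 had 64.8 ± 18.3, 30.9 ± 4.40 and 17.99 ± 4.99. Vegfa, the vessel growth factor, was highest in tumour 2, at 326, and ran from 180 to 223 in the other 4.

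No gene stood at the lowest value of the table, 1, in all 5 tumours. In tumours 3 and 4 a single count was worth more than 1, and 1 was not reached there. Counted instead as at most 3 counts in every tumour, 45 genes (5.84%) were at the floor, and 117 (15.2%) were at 1 count in at least 1 tumour. A signal of at most 20 in every tumour was found for 228 genes (29.6%). The 45 genes were looked at after their values were seen. They held the cytokines Il2, Il3, Il4, Il9, Il13, Il17a, Il24 and Il27, the interferons Ifna2 and Ifnl2, and the B cell genes Blk, Cr2, Cd79a and Ms4a1. They also held the chemokine receptors Cxcr1 and Cxcr5, the neutrophil genes Ltf and Camp, and Ido1, which encodes a tryptophan-degrading enzyme. Blk, Cxcr1 and Cxcr5 never exceeded 2 counts in a tumour. Values of negative control probes were not used here, so the count that an absent transcript gives is not known, and no such gene is called unexpressed.

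Over the 393 genes with a mean count of at least 50, the median SD of log2(signal + 1) between tumours was 0.20, with quartiles of 0.14 and 0.29. The median coefficient of variation (CV) was 13.8%, and counting alone would give a median of 7.04%. For 201 genes (51.1%) the CV was at least 2 times the counting CV, and for 42 it was at or below it. The highest signal was at least 2 times the lowest for 51 genes (13.0%). Among the other 377 genes, which had fewer counts, the counting CV alone had a median of 34.9%. Spread among those genes was therefore not ranked.

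**Figure D3:**
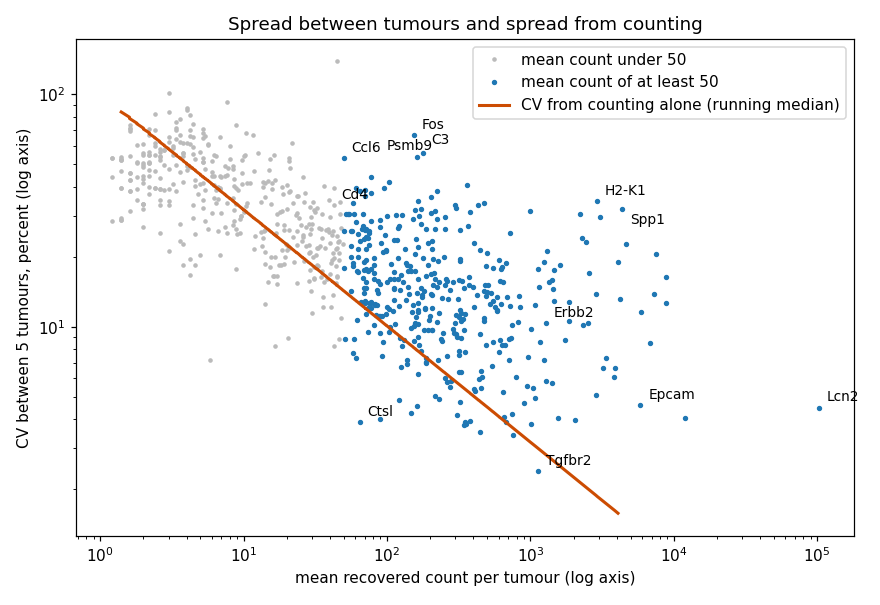
Coefficient of variation between 5 tumours against mean recovered count, both on log axes, with a point for each gene. The line is the running median of the CV that counting alone gives, and most genes above 100 counts lie over it, such as H2-K1 and Spp1, while Tgfbr2 and Ctsl lie under it.

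The steadiest gene was Tgfbr2, a receptor of transforming growth factor beta, with 1204, 1228, 1154, 1208 and 1181 and an SD of 0.03. Itch and Yy1, which encode a ubiquitin ligase and a transcription factor, had 794 ± 27.3 and 472 ± 16.6. Traf2, Runx1, Cdh1, Ctsl, Mcam, Cx3cr1 and Mapkapk2 completed the 10 lowest SDs, which round to 0.06 or less. This order rests on the deposited scaling: with equal medians of all genes the SD of Tgfbr2 was 0.17.

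The 21 genes with an SD of at least 0.5 were mostly genes of chemokines, complement, antigen processing and cytotoxic cells. Besides those already described, Fos, an immediate early gene that growth signals and stress induce rapidly, had 79.0, 97.7, 152, 126 and 345. Tumour 5 stood alone for Fos, and without it the SD fell from 0.81 to 0.41. F13a1, a transglutaminase gene of macrophages, had 99.7, 48.9, 101, 124 and 177, and Tnfsf18, which encodes GITR ligand, 113, 56.5, 71.9, 132 and 45.6. Hsd11b1, an enzyme that activates glucocorticoids, had 342, 250, 454, 395 and 185. At the threshold, Tcf7 (0.51), Irf5 (0.50) and H2-K1 (0.50) lay just inside and Ifit3 (0.49), Zbp1 (0.49) and Tlr1 (0.48) just outside. The lowest and the highest tumour were the same in all 4 other scalings for 16 of the 21 genes, the exceptions being C3, Gzma, Klrd1, Hsd11b1 and Csf2rb. Without tumour 2, 11 of the 21 genes still had an SD of at least 0.5.

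**Figure D4:**
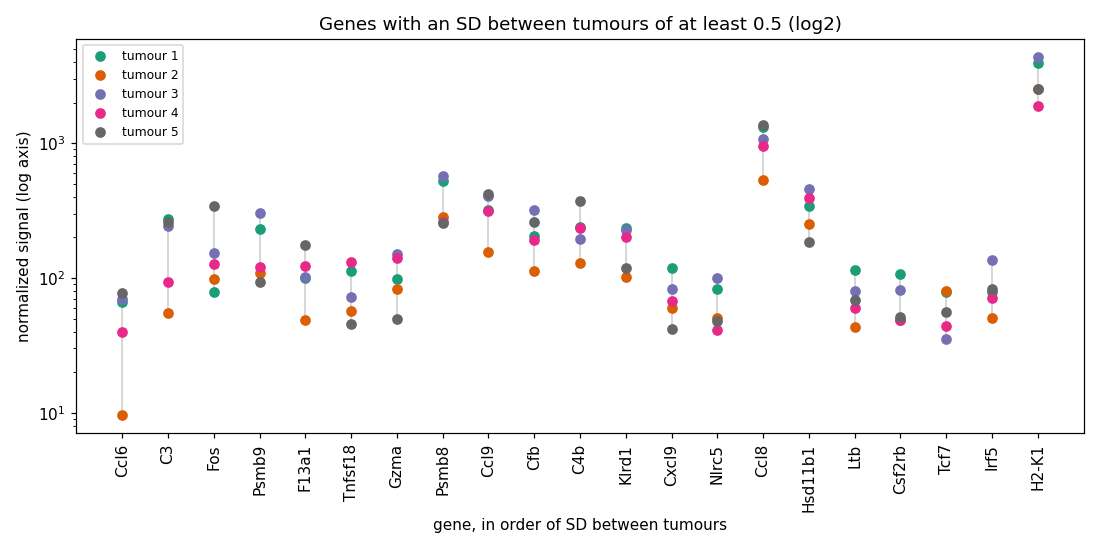
Normalized signal (log axis) in 5 tumours of the 21 genes with an SD of at least 0.5, in order of SD. Ccl6, C3, F13a1, Ccl9, Cfb, C4b and Ccl8 are lowest in tumour 2, whereas Psmb9, Psmb8, Gzma, Tnfsf18, Cxcl9 and Hsd11b1 are lowest in tumour 5.

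The tumours did not share extremes evenly. Of the 393 genes, 20.1%, 10.4%, 30%, 14.5% and 24.9% had their highest signal in tumours 1 to 5, and 7.12%, 35.4%, 17.3%, 25.2% and 15% their lowest. Tumour 2 was lowest for the most genes (139) and tumour 3 highest for the most (118). This imbalance depended on the scaling: with equal medians of all genes 39 genes were lowest in tumour 2 and 56 highest in tumour 3. The mean of the 393 genes itself stood 0.13 (log2) below its average in tumour 2 and 0.08 above it in tumours 1 and 3, and gene lists are read against that shift. Over all measured members, the list level (the mean of log2(signal + 1)) was lowest in tumour 2 for 13 of 23 lists and highest in tumour 3 for 11.

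Of 17 macrophage genes with a mean count of at least 50, 13 were lowest in tumour 2, and of 16 complement genes 11 were, against 35.4% of the 393 genes. Over these members the macrophage list level was 0.29 below its average in tumour 2, and the complement level 0.38 below. The 14 chemokine genes with such counts stood 0.41 below their average there, but over all 36 measured tumour 4 was lowest, in the deposited values and in the 3 other scalings of list levels. In the mean of all 22 macrophage genes tumour 5 was highest in the deposited values and under equal totals, equal medians and quantile normalization. Tumour 2 was lowest in all of these but equal medians, where tumour 1 was. Over the 17 with a mean count of at least 50, however, tumour 3 was highest, at 8.72 against 8.65 in tumour 5. Of these 17, 9 were highest in tumour 3 and 5 in tumour 5. With a pseudocount of 10 tumour 3 was highest over all 22 as well.

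Class I and peptide loading genes were highest in tumour 3 for 10 of 15 members (30% of the 393 genes were), with a list level 0.39 above its average there and 0.31 above in tumour 1. For all measured members, too, tumour 3 was highest under these 3 other scalings. Interferon genes had 13 of 29 members highest in tumour 3 and 13 lowest in tumour 4, where the shares of the 393 genes were 30% and 25.2%. The 11 members lowest in tumour 2 were close to the share of 35.4% over those genes. The level of the 29 members was nonetheless 0.25 below its average in tumour 2 as well as in tumour 4, and 0.26 above in tumour 3. Over all 44 measured, tumour 2 was lowest as deposited and under equal totals, and tumour 4 with equal medians and quantile normalization. Tumour 3 was highest in all of these but equal medians, where tumour 5 was. Class II genes ran from 0.29 below average in tumour 2 and 0.28 below in tumour 4 to 0.25 above in tumour 3. Over the 8 NK cell and cytotoxic genes with a mean count of at least 50, the level ran from 0.43 below average in tumour 5 to 0.37 above in tumour 3, the widest range of the lists cut in this way. Over all 31 measured the range was 0.56, narrower than for 4 other lists, with tumour 5 lowest and tumour 4 highest. Epithelial genes spanned only 0.08 above to 0.05 below their average. Fibroblast and matrix genes stood within 0.11 of theirs. These narrow ranges rest on the deposited scaling. Over all measured members, the epithelial range was 0.12 and the fibroblast range 0.12 as deposited, and 0.30 and 0.39 with equal medians, where the macrophage range was 0.28, down from 0.47.

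**Figure D5:**
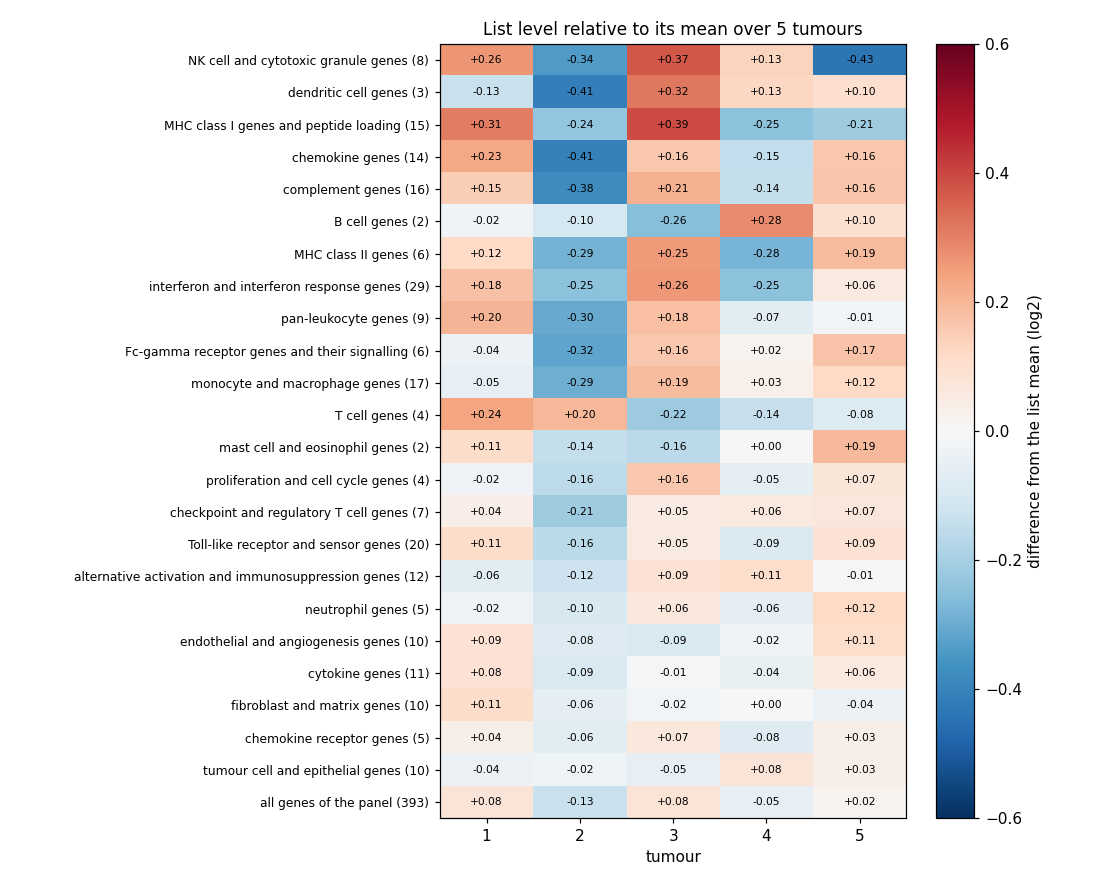
Difference, in the deposited scaling, of each gene list's level from its own mean over 5 tumours, in log2 units, for members with a mean count of at least 50 (number in brackets). Rows are ordered by range, with all 393 genes at the bottom; NK, dendritic cell, class I, chemokine and complement lists show the widest ranges and epithelial genes the narrowest.

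The summed pan-leukocyte markers were 410, 273, 384, 350 and 325 in tumours 1 to 5, the summed NK markers 398, 201, 376, 350 and 206, and the summed T cell markers 104, 65.2, 132, 87.7 and 116. The summed macrophage markers were 1413, 1090, 1508, 1514 and 1368. Tumour 2 was lowest for all 4 sums in the deposited values, but only just under tumour 5 for the NK markers. Ncr1 was lowest in tumour 5 in every scaling tried, and Klrd1 in tumour 2 in all but quantile normalization. The sums were not computed under other scalings. Over the same tumours the summed epithelial markers were 8769, 8208, 8801, 9140 and 8506. The summed fibroblast markers were 18672, 20123, 17340, 15066 and 14875, highest in tumour 2. The part that cell content plays in the spread of the chemokine, complement and class I genes was not tested.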

How the data were processed

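Total RNA of MMC tumours was hybridized to nCounter oligonucleotide probes, per the labels' protocols. The deposited values are a normalized signal per gene and tumour, and how the authors normalized them or treated background is not stated in the labels. The treatment label set each group. All columns were matched to a sample (0 were not), and the 5 tumours of the isotype antibody group were used. Within each tumour, 100% of values above 1 and up to 1000 were whole multiples of 1 step within 0.02 of a count, so dividing by the step gave back probe counts (271793 to 395944 per tumour). The lowest count is 1, so an absent transcript may stand at 1. Of 770 symbols, 762 matched the RefSeq annotation of GRCm38.p6 and 754 were current, and symbols are printed as deposited.

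One group has no contrast, so no test was run and no p-value is given, and a count model was not needed. The report gives each signal with its mean ± SD over 5 tumours. Spread is the SD of log2(signal + 1), over genes with a mean count of at least 50, beside the CV that Poisson counting gives. Genes at an SD of at least 0.5 were counted, as were genes highest or lowest in each tumour. The spread calculation was checked on simulated counts. Values were computed in Python 3.11.15 with pandas 2.3.3, numpy 2.4.6 and scipy 1.17.1.

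Named genes were the 25 of highest signal, the 20 highest and 10 lowest SDs, up to 15 at the floor (none met that rule), the 4 highest and 2 most variable members of each of 24 lists, and a fixed set of which 42 were measured, 158 in all, without reference genes. Some of them are not reported here. The members and lists were chosen with earlier results of these data known. Alternatives were equal totals with and without Lcn2, equal medians, quantile normalization, a pseudocount of 10, minimum counts of 0, 20 and 100, other floor rules, medians for means, and each tumour left out. After the data were seen, a floor at 1 count, leaving out tumour 2 for the extremes, and list levels over members with at least 50 counts were added. Replicate tumours carry numbers only, and the labels do not tie a tumour to an animal or a run, so the SD is that between these samples.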

Additional observations from a re-analysis of the deposited data

Results flagged for a closer look

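For 133 named genes and 23 list levels, the gap between the most extreme tumour and its nearest neighbour was divided by the range of the 5 tumours on the log2(signal + 1) scale. A tumour was set apart above Dixon's 95% critical value for 5 samples, 0.71, which chance exceeds in about 1 in 20 groups. It was passed by 2 of the 133 genes and 1 of the 23 list levels, and by 3.31% of the 393 genes with a mean count of at least 50.

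The myeloid chemokine Ccl9 had a gap of 0.715 of its range, with tumour 2 at 156 below the other tumours at 315 to 416. Itgb1, which encodes the integrin beta 1 chain, had a gap of 0.801, with tumour 4 at 4063 above the others at 3435 to 3552, a range of only 1.18-fold. The level of all 22 measured monocyte and macrophage genes had a gap of 0.725, with tumour 2 at 7.21 below the others at 7.55 to 7.68. This flag is for the deposited scaling, and with equal medians of all genes tumour 1 was lowest. Over the 17 members with a mean count of at least 50, tumour 2 was at 8.24 and the others at 8.48 to 8.72. The gap rule was not applied to those 17 or to other scalings.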

How the results depend on the processing

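Ranks were stable: under the other scalings no named gene moved more than 12 places, and all 158 stayed within 1 SD of their main value, while leaving out 1 tumour or taking medians moved single genes by up to 43 places. The number of genes at a signal of 1000 or more (55) and the shares of counts from Lcn2 and from the 10 highest genes moved little, with 53 to 56 genes when each tumour was left out. The median SD, 0.20, was 0.31 without a filter on low counts and 0.18 to 0.23 under the other alternatives. The floor depended on its definition. No gene was at the value 1 in every tumour, 6 were in at least 3 tumours, 45 had at most 3 counts in every tumour, 117 had 1 count in at least 1, and 159 and 228 had signals of at most 10 and at most 20 throughout. An SD of at least 0.5 was found for 21 genes as deposited, 13 with equal totals without Lcn2, 11 with equal medians and 12 with quantile normalization, of which 13, 9 and 12 were among the 21. No filter gave 179 genes, a minimum of 20 counts 41 and of 100 counts 12, which changes how many genes are tested. Without single tumours there were 15 to 30, of which 11 to 20 were among the 21. Genes lowest in tumour 2 numbered 139 as deposited and 81, 39 and 69 under those 3 scalings, and genes highest in tumour 3 numbered 118 and then 73, 56 and 78. Without a filter they were 269 and 215. List levels lowest in tumour 2 fell from 13 to 5 with equal medians and 5 with quantile normalization. The cause was not tested. No paired analysis was possible because the values describe 1 group and come from no test. Below a mean signal of 10 the median CV from counting was 53.1% and the median CV between tumours 46.4%, so depth limits what these genes can show. The scaling that makes tumours comparable is the authors' own, and 5 tumours limit every SD.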
